A study of Mus musculus with 3 samples.

Results

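Promoter contacts of the genes that govern exit from the cell cycle were examined in mouse erythroid cells. The genes were the cyclins Ccnd3 and Ccnd2, the kinases Cdk6 and Cdk4, the kinase inhibitor Cdkn1b, the transcription factors E2f2 and E2f4, the pocket protein Rb1 and the antiproliferative factor Btg2. A captured promoter fragment, called a viewpoint, was taken for a gene when the gene's symbol was exactly 1 of the parts of its name. Of the 9 genes, 7 had a viewpoint, and Ccnd2 and Cdk6 were not in the viewpoint list used here. The list held 7197 viewpoints in all, of which 7176 had a name that no other viewpoint carried and had contacts.

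The cells formed 1 group of 3 libraries and had no control group, so each comparison was made between distances, sides or viewpoints within the same libraries. They came from spleens of C57BL/6 × CBA/J F1 hybrid mice made anemic with phenylhydrazine in 3 doses, 12 h apart, and killed on day 5. Cells carrying the erythroid surface marker ter119 were selected, and most of the spleen cells were positive for both ter119 and CD71. Such a population is a mixture of maturing stages, so cells that still divide and cells that have stopped cannot be told apart. The assay, nuclear-titrated Capture-C, cuts chromatin in nuclei with the enzyme DpnII, ligates fragments that lie close together and enriches the ligation products of chosen fragments with probes. It records contact, not expression, and no marker gene could be checked in these values. The labels did not say whether the libraries came from separate animals, so the spread between them may be technical. The table named none of its 3 columns, and the first, second and last are called libraries a, b and c here.

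Erythroid precursors divide a limited number of times and then leave the cell cycle for good before they lose their nucleus. D-type cyclins such as the product of Ccnd3 bind Cdk4 and Cdk6, and these kinases phosphorylate the Rb1 protein. Unphosphorylated Rb1 holds E2f factors and keeps genes for DNA synthesis off, while the product of Cdkn1b blocks cyclin-dependent kinases. E2f4 acts mostly as a repressor with pocket proteins, E2f2 is counted among the activators, and Btg2 restrains proliferation through messenger RNA turnover and transcription.

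The viewpoints are single DpnII fragments, and all positions are in the build mm9, with genes from GENCODE M1. The Ccnd3 fragment, chr17:47729995-47730759, was 765 bp long. It covered the start of the transcript Ccnd3-201 at position 47730416, well inside the annotated gene, whose outermost start lies at 47642000. The Cdk4 fragment, chr10:126500577-126500737, was 161 bp long, at percentile 2.88 of all viewpoints in length. The Cdkn1b fragment lay at chr6:134870108-134870684 and the E2f4 fragment at chr8:107821479-107822219. The Rb1 fragment, chr14:73724876-73726077, and the Btg2 fragment, chr1:135975592-135976151, belonged to genes on the minus strand. Each of these 6 fragments held an annotated start and a first exon with 5′ UTR. The E2f2 fragment, chr4:135727514-135728208, ended 101 bp before the GENCODE start and was intergenic in that annotation, but it held 270 of the 300 bases of a RefSeq promoter of E2f2.

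Promoter sequences were taken from RefSeq (build GRCm38.p6), from 250 bases before to 50 after each start, and were found unchanged in mm9 at the positions given. For 5 genes 7 such windows were held, with 2 each for Ccnd3 and E2f2, and E2f4 and Rb1 had none. Both starts of Ccnd3 are shown because the contacts with the lowest p-values of this promoter lay close to its upstream start. Cdk4 and E2f2 are shown for the motif in capitals, and Btg2 as the antiproliferative gene. Both marked motifs lie outside the captured fragments. These fragments hold the last 64 bases of the Cdk4 window and the first 270 of the E2f2 window. Each sequence runs 5′ to 3′ on the strand of its gene.
Ccnd3 captured start, chr17:47730166-47730465, plus strand: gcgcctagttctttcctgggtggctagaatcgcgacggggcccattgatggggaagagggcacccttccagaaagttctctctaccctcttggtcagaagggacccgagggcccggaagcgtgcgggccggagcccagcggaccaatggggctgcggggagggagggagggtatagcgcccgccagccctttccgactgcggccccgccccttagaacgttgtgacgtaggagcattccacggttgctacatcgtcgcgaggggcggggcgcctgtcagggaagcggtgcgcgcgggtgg
Ccnd3 upstream start, chr17:47641750-47642049, plus strand: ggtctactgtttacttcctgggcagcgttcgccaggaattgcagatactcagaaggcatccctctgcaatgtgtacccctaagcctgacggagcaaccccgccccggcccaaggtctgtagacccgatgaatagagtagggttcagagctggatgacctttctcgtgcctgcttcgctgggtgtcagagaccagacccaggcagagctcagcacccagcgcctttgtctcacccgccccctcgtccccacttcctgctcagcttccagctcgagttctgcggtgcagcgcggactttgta
Cdk4, chr10:126500341-126500640, plus strand: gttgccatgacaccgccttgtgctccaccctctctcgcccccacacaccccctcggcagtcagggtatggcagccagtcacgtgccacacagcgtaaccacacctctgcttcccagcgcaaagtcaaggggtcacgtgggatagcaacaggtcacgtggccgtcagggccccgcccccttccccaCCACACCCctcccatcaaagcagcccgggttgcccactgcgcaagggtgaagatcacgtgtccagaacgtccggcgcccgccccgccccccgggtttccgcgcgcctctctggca
E2f2, chr4:135727939-135728238, plus strand: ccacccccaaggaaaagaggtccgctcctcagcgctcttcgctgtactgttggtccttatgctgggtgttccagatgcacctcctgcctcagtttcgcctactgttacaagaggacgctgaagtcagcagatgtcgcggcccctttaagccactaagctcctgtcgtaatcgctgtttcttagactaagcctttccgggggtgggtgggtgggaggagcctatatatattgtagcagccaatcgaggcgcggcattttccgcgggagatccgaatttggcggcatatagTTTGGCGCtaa
Btg2, chr1:135975683-135975982, minus strand: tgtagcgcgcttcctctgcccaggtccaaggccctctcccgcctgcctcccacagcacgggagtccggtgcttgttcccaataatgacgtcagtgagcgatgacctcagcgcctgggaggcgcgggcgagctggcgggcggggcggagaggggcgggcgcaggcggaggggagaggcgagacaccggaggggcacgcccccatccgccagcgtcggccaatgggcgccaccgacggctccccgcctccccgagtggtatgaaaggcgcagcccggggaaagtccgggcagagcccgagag

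Capitals mark the matches to the motifs searched, on both strands, in the 7 windows. The E2F motif, TTTCCCGC or TTTGGCGC, was present in the E2f2 window above and in no other of the 7, against 1.56% of 32851 RefSeq promoters. The KLF motif CCACACCC was present only in the Cdk4 window, against 3.56% of promoters. The CHR motif TTTGAA was found only at a second start of E2f2, not printed here, against 17.9%. The GATA motif AGATAA (11.2% of promoters) and a core of the CTCF motif (2.43%) were in none of the 7. No window held more than 1 match, and a match describes letters only.

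The fragment itself decides which ligations are recorded, since each probe pair reaches inward from the DpnII sites at its ends. The 70-base probes of the study for Ccnd3 are shown with the DpnII site, GATC, in capitals, because they anchor the viewpoint to the inner start and not to the upstream one.
Ccnd3 left probe, chr17:47729995-47730064, plus strand: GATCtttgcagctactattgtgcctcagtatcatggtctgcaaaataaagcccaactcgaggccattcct
Ccnd3 right probe, chr17:47730690-47730759, plus strand: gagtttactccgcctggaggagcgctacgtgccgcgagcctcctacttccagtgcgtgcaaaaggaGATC

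Depth differed widely among the promoters. E2f4 had the most events on its own chromosome (cis events), 3095, 4343 and 4348 in libraries a, b and c. Ccnd3 followed with 1748, 3139 and 3056, then Btg2 with 1197, 1896 and 1847, E2f2 with 1098, 1870 and 1745, and Rb1 with 1026, 1569 and 1534. Cdk4 had 338, 417 and 396 events, and Cdkn1b had 108, 202 and 193. With 503 events in all, Cdkn1b was under the minimum of 1000 that the tests required, and its values are given as descriptions. The median viewpoint had 6481.5 events, so Ccnd3 and E2f4 were above the median and the other 5 below it. The 3 libraries held 18211066, 34393796 and 34199631 cis events over all viewpoints with a name of their own and contacts. Sampling noise alone gives a chi-square per window near 1 between libraries. For libraries b and c it was 1.04 over all viewpoints and 0.871 to 1.26 over the 7 promoters, and for library a against b and c it was 1.08 and 1.07. Each library was counted as a replicate, and each mean ± SD below is over libraries a, b and c (n = 3).

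No stretch of chromatin stood out from these promoters at the threshold used. Events within 1 Mb were summed in 5 kb windows and compared with the count expected from distance alone. A window was called when its adjusted p (upper-tail negative binomial test, Benjamini-Hochberg over all windows) was under 0.05 and it was above expectation in each library. Over 6718 viewpoints 0.0677% of 2660531 windows were called, and of the 2398 windows of the 6 promoters deep enough to test, 0 were called. At an unadjusted p under 0.05 there were 71 such windows, which is 2.96% of them, against 4.81% of all windows. Called windows were rare in general, since 995 viewpoints, or 14.8% of those tested, had any. The count of 0 is therefore no result about these promoters, and the windows with the lowest p-values are described below with their counts. The plot of windows around all 7 promoters shows how far the profiles differ from gene to gene.

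**Figure D1:**
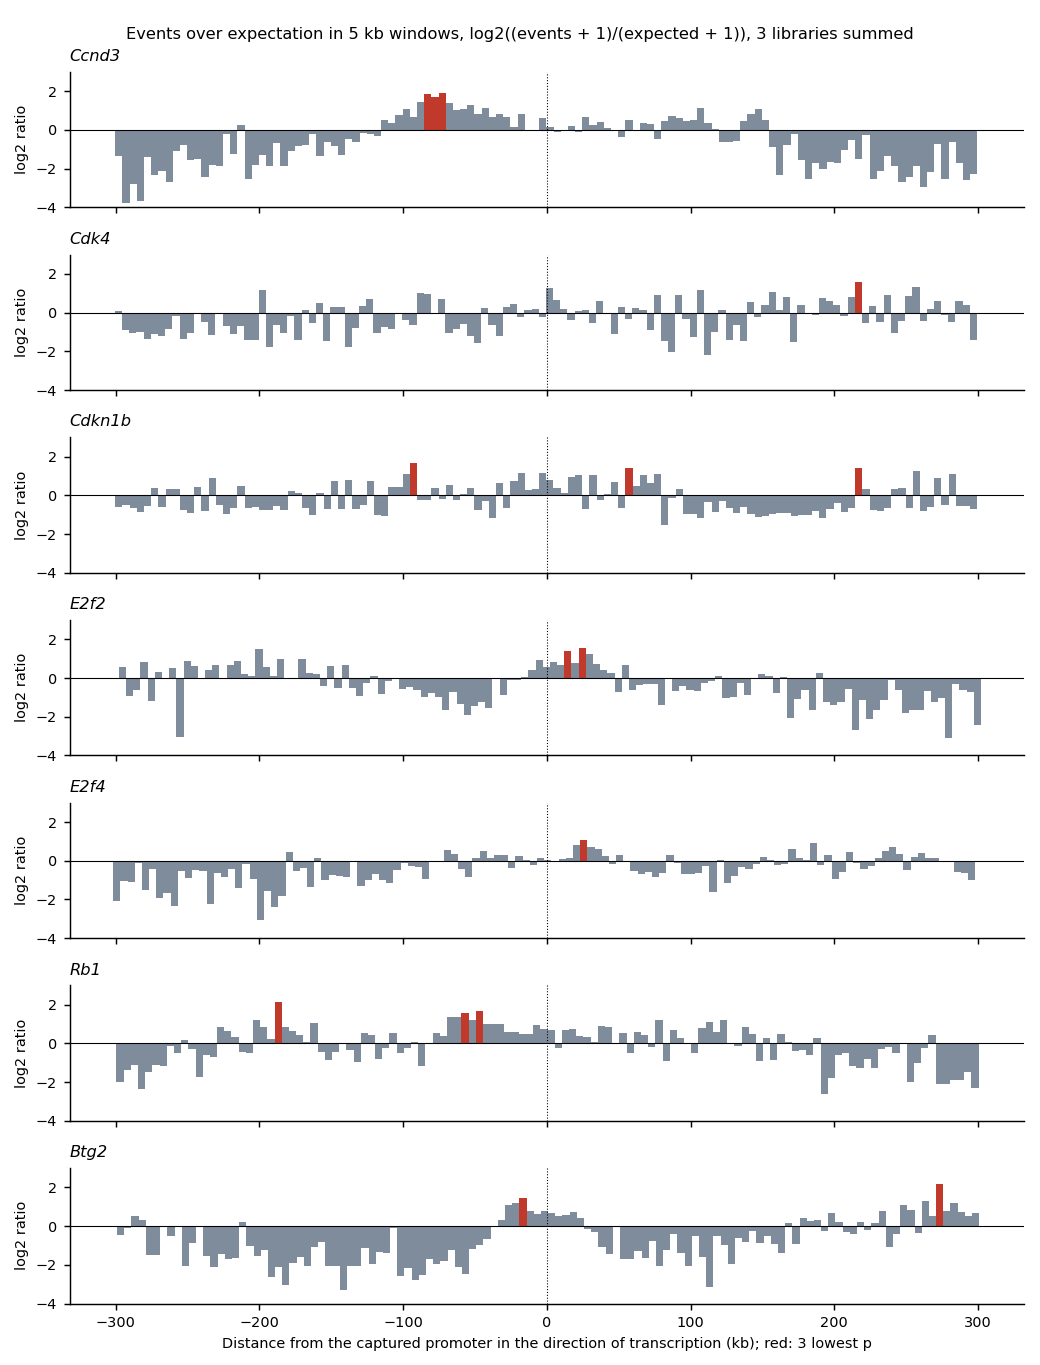
Events over expectation in 5 kb windows around each captured promoter, on the scale log2((events + 1)/(expected + 1)) with the 3 libraries summed, against distance in the direction of transcription in kb. Red bars are those of the 3 windows of lowest p of each gene that lie within the plotted range. Farther ones of Cdk4, E2f2, E2f4 and Btg2 are not drawn. No red window was called, and those of Cdkn1b were not in the test. The red bars of Ccnd3 lie side by side, 72.9 to 82.9 kb upstream.

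Ccnd3, which encodes a D-type cyclin used by erythroid precursors, had the highest share of contacts from 10 to 100 kb of the set. Its share from 2.5 to 10 kb, 6.46% ± 0.473 (SD, n = 3), was the lowest of the set but stood at percentile 59.8 of all viewpoints. Between 10 and 100 kb lay 34.6%, 30.8% and 30.0% of its cis events in libraries a, b and c. The mean of 31.8% ± 2.45 (SD, n = 3) compares with a median of 16.1% over 6718 viewpoints (quartiles 13.1% and 19.9%), and it stood at percentile 99.1 of them. Every library was thus well above the upper quartile. From 100 kb to 1 Mb the share was 14.2% ± 0.207 (SD, n = 3), at percentile 18.3, so the excess was confined to the nearer range among the bands beyond 10 kb.

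From 50 to 100 kb the contacts of Ccnd3 were higher on the upstream side, where most of its own gene lies. From 50 to 100 kb upstream there were 195, 263 and 263 events in libraries a, b and c, which is 3.00, 2.46 and 2.57 times expectation. The mean ratio was 2.67 ± 0.285 (SD, n = 3), and the summed ratio was at percentile 99.2 among 5455 viewpoints. At the same distance downstream the ratios were 0.946, 1.30 and 1.19, with a mean of 1.15 ± 0.182 (SD, n = 3), so upstream was higher in each library and the sides did not overlap. From 2.5 to 10 kb the sides were close, at 1.11 ± 0.150 upstream and 0.989 ± 0.126 downstream (SD, n = 3). From 200 to 500 kb the contacts fell away on both sides, with a mean ratio of 0.202 ± 0.0279 (SD, n = 3) upstream and 0.175 ± 0.0396 (SD, n = 3) downstream, at percentiles 2.26 and 1.12. From 500 kb to 1 Mb the ratios were higher again, 0.837 ± 0.0292 upstream and 0.604 ± 0.0937 downstream (SD, n = 3), at percentiles 48.5 and 30.7.

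The 3 windows of Ccnd3 with the lowest p-values were neighbours inside its gene, between the upstream and the captured start. The window chr17:47655001-47660000, 72.9 kb upstream, held 32, 32 and 38 events in libraries a, b and c against 26.9 expected in all. Its ratio to expectation was 3.96 ± 0.995 (SD, n = 3), and its adjusted p by the negative binomial test was 0.0843. The next window outward, chr17:47650001-47655000, held 15, 41 and 33 events, with a ratio of 3.26 ± 0.803 (SD, n = 3) and an adjusted p of 0.187. The window after it, chr17:47645001-47650000, held 20, 25 and 21 events, with a ratio of 3.97 ± 0.843 (SD, n = 3) and an adjusted p of 0.101. All 3 were intronic in Ccnd3, held no other viewpoint and were above expectation in each library, and none passed the threshold. When fragments that share a 30-base word with their viewpoint were left out of the whole table, 2 of the 3 passed, although neither held such a fragment, with adjusted p-values of 0.0350 and 0.0481. Under that setting calls over all viewpoints also rose, from 1800 to 2598 windows (0.0977%). With the expectation set within distance bands for each viewpoint, the summed ratios of the 3 windows went from 3.80, 3.39 and 3.84, outward, to 2.19, 1.96 and 2.22, with adjusted p-values of 0.893, 1 and 0.908.

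The window that holds the upstream start itself was looked at after its neighbours had been seen. It covers chr17:47640001-47645000 and held 25, 33 and 32 events, with a ratio of 2.85 ± 0.363 (SD, n = 3) and an adjusted p of 0.447. The window beyond it, which contains the Taf8 viewpoint, a captured fragment not listed as a contact, had a ratio of 1.61 ± 0.293 (SD, n = 3). The window after that, also outside the gene, had 1.55, 2.36 and 2.46 times the expected events in the 3 libraries, a summed ratio of 2.21, and a pair of windows inside the gene, nearer the captured start, had summed ratios of 2.08 and 2.13. The values just outside the gene thus overlap those inside it. The plot of the 3 libraries of Ccnd3 shows the same stretch above expectation in each.

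**Figure D2:**
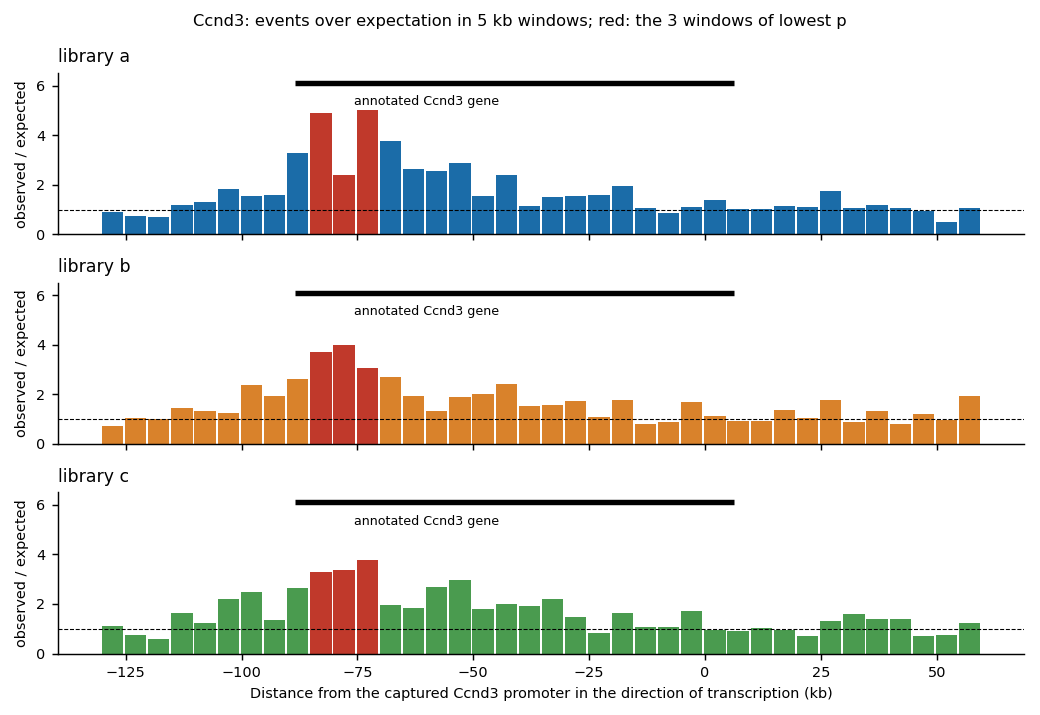
Observed over expected events of the Ccnd3 promoter in 5 kb windows, 1 panel per library, against distance in the direction of transcription in kb, with the dashed line at expectation. Of the 3 red windows, those of lowest p, the one 72.9 kb upstream has ratios of 5.03, 3.06 and 3.79 in libraries a, b and c, and the black bar spans the annotated gene.

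Cdk4, the kinase partner of D-type cyclins, was captured on a short fragment, and its profile was shallow. Between 10 and 100 kb lay 20.1%, 18.2% and 16.9% of its events in libraries a, b and c, with a mean of 18.4% ± 1.61 (SD, n = 3) at percentile 66.2. Under 2.5 kb it had 4.40% ± 1.30 (SD, n = 3) of its events, at percentile 98.4, and from 2.5 to 10 kb 9.003% ± 1.99 (SD, n = 3), at percentile 92.8. As shares, its contacts close to the fragment were thus frequent, while at 10 to 100 kb it was nearer the middle of all viewpoints. Distances are counted from the midpoint of the fragment, and the part of its short length in these shares was not tested. From 2.5 to 10 kb downstream the ratio to expectation was 2.35, 1.69 and 1.36 in the 3 libraries. Its own gene ends 4.32 kb past the viewpoint, so it covers only the first part of that stretch.

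Far contacts of Cdk4 lay mostly downstream. From 200 to 500 kb there were 17, 27 and 25 events downstream against 8, 3 and 4 upstream in libraries a, b and c. The mean ratio to expectation was 1.17 ± 0.173 (SD, n = 3) downstream and 0.300 ± 0.188 (SD, n = 3) upstream, and each library had more events downstream. From 500 kb to 1 Mb the ratios were 1.28 ± 0.477 and 0.397 ± 0.293 (SD, n = 3). The 3 windows of lowest p held 4, 3 and 5 events in all, with adjusted p-values from 0.344 to 0.725, and each was empty in 1 library. Leaving out a library moved the summed ratios of these windows by over 1.5 times, for example from 12.3 to 4.74 without library c for the farthest one. Of the 401 windows of Cdk4, 277 had an expectation under 1 event.

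Cdkn1b, the inhibitor of cyclin-dependent kinases, had the fewest events. Between 10 and 100 kb lay 25.9%, 32.2% and 23.8% of them in libraries a, b and c, with a mean of 27.3% ± 4.34 (SD, n = 3), at percentile 96.2. Over the summed events the share was 27.6%, with an exact binomial 95% interval of 23.8% to 31.8%, which lies above the median of all viewpoints. The share from 2.5 to 10 kb, 12.8% ± 1.38 (SD, n = 3), was at percentile 99.5, and that from 100 kb to 1 Mb, 10.6% ± 3.72 (SD, n = 3), at percentile 5.39. Like Ccnd3 it had a high share from 10 to 100 kb, but unlike Ccnd3 also from 2.5 to 10 kb. From 100 to 200 kb downstream there were 0, 0 and 2 events against 19.6 expected. In library a, with 108 cis events, a count of 0 allows a share of up to 2.78%.

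The windows of Cdkn1b were not in the test. The one with the lowest p in the fit without a depth minimum, chr6:134775001-134780000, 92.9 kb upstream, held 1, 6 and 0 events and contains the viewpoint of Crebl2. With 7 events in all and none in library c, it is no more than a count.

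Rb1, the pocket protein that restrains E2f factors, had many contacts from 10 to 100 kb and few from 100 kb to 1 Mb. Between 10 and 100 kb lay 21.4%, 21.9% and 22.9% of its events in libraries a, b and c, with a mean of 22.1% ± 0.732 (SD, n = 3), at percentile 85.0. From 100 kb to 1 Mb the share was 11.1% ± 1.15 (SD, n = 3), at percentile 6.53. Within that range, from 100 to 200 kb, the ratio to expectation was 1.12 ± 0.161 downstream and 1.29 ± 0.328 upstream (SD, n = 3). From 200 to 500 kb it was lower, 0.339 ± 0.119 downstream and 0.442 ± 0.0776 upstream (SD, n = 3). Beyond 1 Mb the share was not low, with 25.5% ± 0.737 from 1 to 10 Mb and 33.5% ± 0.451 beyond 10 Mb (SD, n = 3). These stood at percentiles 77.7 and 49.1. The near contacts were higher upstream, away from the gene. From 10 to 50 kb upstream there were 80, 128 and 117 events, 1.83, 1.82 and 1.74 times expectation, while downstream, inside the 142 kb gene, the ratios were 1.21, 1.28 and 1.71. The mean was 1.80 ± 0.0488 upstream and 1.40 ± 0.271 downstream (SD, n = 3), and upstream was higher in each library, by little in library c. From 500 kb to 1 Mb upstream the ratio was 0.210 ± 0.118 (SD, n = 3).

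The neighbour on the upstream side of Rb1 is Itm2b, a gene for a transmembrane protein. A window inside it, chr14:73770001-73775000, 47.0 kb upstream of the Rb1 viewpoint, held 8, 18 and 20 events, with a ratio of 3.25 ± 0.769 (SD, n = 3) and an adjusted p of 0.244 by the negative binomial test. The window with the Itm2b viewpoint, chr14:73780001-73785000, held 17, 10 and 11 events and had an adjusted p of 0.393. In the first the ratio was highest in library c and in the second in library a. The lowest p of Rb1 belonged to chr14:73910001-73915000, 187 kb upstream, which overlaps an exon of Med4. It held 7, 5 and 7 events against 3.54 expected, with an adjusted p of 0.143. All 3 windows were above expectation in each library and none was called. With banded expectation the summed ratios of the pair in Itm2b went from 3.36 and 3.10 to 1.99 and 1.84.

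E2f2, counted among the activating E2f factors, had more contacts downstream than upstream from 10 to 50 kb, a stretch that begins in its own gene and runs past the gene's end 24.1 kb from the viewpoint. Nearer in, from 2.5 to 10 kb, both sides were above expectation, at 1.68 ± 0.156 downstream and 1.81 ± 0.191 upstream (SD, n = 3). The medians over all viewpoints there were 1.19 and 1.13. From 10 to 50 kb downstream there were 148, 223 and 223 events in libraries a, b and c, which is 2.002, 1.86 and 1.91 times expectation, with a mean of 1.92 ± 0.0720 (SD, n = 3). Upstream at the same distance the ratios were 1.08, 0.664 and 0.904, with a mean of 0.882 ± 0.207 (SD, n = 3). Downstream was higher in each library and the sides did not overlap. From 50 to 100 kb upstream the ratio was 0.434 ± 0.0404 (SD, n = 3), at percentile 4.80. Farther out the order of the sides turned. At 200 to 500 kb it was 1.16 ± 0.253 upstream and 0.390 ± 0.161 downstream, and past 500 kb it was 0.796 ± 0.0269 upstream and 0.181 ± 0.0187 downstream (SD, n = 3).

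The E2f2 window of lowest p, chr4:135750001-135755000, 24.6 kb downstream, overlaps the last exon of E2f2 with its 3′ UTR and runs past the gene's end at 135751972. It held 25, 43 and 30 events against 33.2 expected, with a ratio of 2.97 ± 0.5001 (SD, n = 3) and an adjusted p of 0.294. The next, chr4:135740001-135745000, over an inner exon, held 25, 30 and 34 events, with a ratio of 2.78 ± 0.417 (SD, n = 3) and an adjusted p of 0.438. Both overlapped the gene and were above expectation in each library. With banded expectation their summed ratios went from 2.95 and 2.72 to 1.85 and 1.70, both with an adjusted p of 1, while that of the last named window, 730 kb upstream, went from 5.55 to 8.94, with an adjusted p of 0.340. That window held 0, 5 and 2 events in libraries a, b and c, and without library b its ratio was 2.62 with an adjusted p of 1. A window at the second RefSeq start of E2f2, looked at after the values had been seen, had a lower ratio of 1.62 ± 0.177 (SD, n = 3). E2f2 also had few contacts beyond 10 Mb, 18.03%, 19.0% and 19.9% of its events, with a mean of 19.0% ± 0.955 (SD, n = 3) at percentile 2.97 against a median of 33.7%.

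E2f4, which represses with pocket proteins, was the deepest viewpoint of the set and the one closest to expectation. Of its 12 stretches by distance and side, mean ratios ranged from 0.558 to 1.42. The highest was from 10 to 50 kb downstream, with 285, 321 and 349 events and a mean of 1.42 ± 0.147 (SD, n = 3), and upstream at that distance it was 1.06 ± 0.0371 (SD, n = 3). From 100 to 200 kb upstream it was 0.566 ± 0.0792 (SD, n = 3), and downstream 0.843 ± 0.0265 (SD, n = 3). Beyond 10 kb the downstream side thus had the higher ratio in each library at every distance except from 50 to 100 kb, where upstream was higher. The windows of lowest p were 916 kb downstream at Prmt7, with 1, 4 and 10 events, and 859 kb upstream at Dync1li2, with 2, 6 and 6. Their adjusted p-values were 0.508 and 0.804, and the ratio at Prmt7 went from 4.81 to 2.55 without library c. The remaining one, 25.7 kb downstream at the viewpoint Lrrc29_Tmem208, had more events, 42, 54 and 55, a ratio of 2.10 ± 0.0843 (SD, n = 3) and an adjusted p of 0.838.

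Btg2, the antiproliferative gene, had contacts in 2 ranges with a gap between them. From 2.5 to 10 kb lay 12.4%, 11.1% and 9.91% of its events, with a mean of 11.1% ± 1.27 (SD, n = 3), at percentile 98.7. From 10 to 50 kb upstream there were 123, 189 and 217 events, with a ratio of 1.76 ± 0.175 (SD, n = 3). From 50 to 100 kb upstream there were only 9, 18 and 18 events against 195 expected, a ratio of 0.226 ± 0.0339 (SD, n = 3), at percentile 0.458, and from 100 to 200 kb the ratio was 0.243 ± 0.0214 (SD, n = 3). From 200 to 500 kb upstream it was back at 1.11 ± 0.0787 (SD, n = 3). The downstream side had a similar order with a shallower gap. Its ratio was 1.17 ± 0.129 from 10 to 50 kb and 0.380 ± 0.0636 from 50 to 100 kb (SD, n = 3). It was 0.600 ± 0.164 from 100 to 200 kb and 1.34 ± 0.204 from 200 to 500 kb (SD, n = 3). In each library and on both sides, the stretch from 50 to 100 kb was below the one from 200 to 500 kb.

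**Figure D3:**
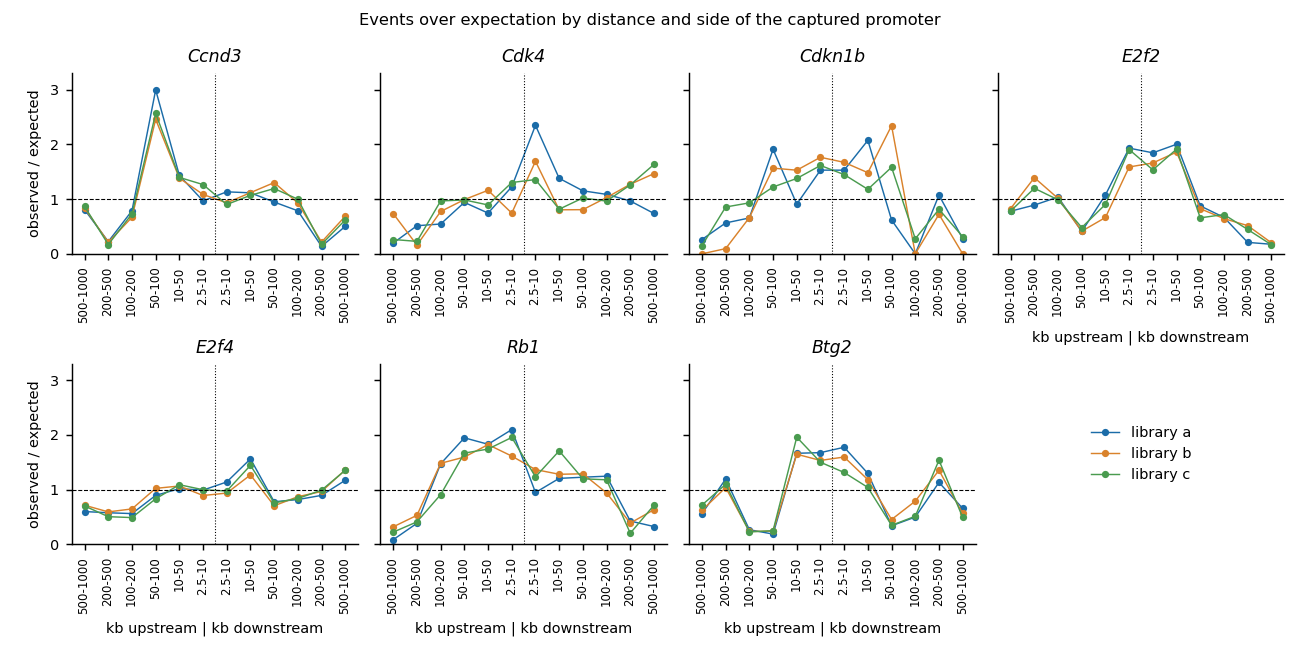
Observed over expected events by distance and side of each captured promoter, upstream on the left and downstream on the right of the dotted line, distances in kb, with a line for each of libraries a, b and c and a dashed line at expectation. Ccnd3 peaks 50 to 100 kb upstream at 2.67, E2f2 10 to 50 kb downstream at 1.92, and Btg2 falls to 0.226 from 50 to 100 kb upstream (means, n = 3).

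The Btg2 windows of lowest p lay in both ranges. The one at chr1:135990001-135995000, 16.6 kb upstream and intergenic, held 26, 39 and 44 events, with a ratio of 2.77 ± 0.231 (SD, n = 3) and an adjusted p of 0.430. The one at chr1:135700001-135705000, 273 kb downstream and also intergenic, held 5, 2 and 9 events against 2.76 expected, with an adjusted p of 0.168. The last, chr1:135515001-135520000, 458 kb downstream and overlapping an exon of Zc3h11a, held 4 events in each library against 2.78 in all. It had an adjusted p of 0.585. Of its 12 events 7 lay in an intergenic fragment and 3 in a fragment with an exon of that gene. Each of the 3 windows was above expectation in the 3 libraries and none was called. With banded expectation the window 273 kb downstream passed the threshold. Its summed ratio was 8.95 in place of 5.79, with an adjusted p of 0.0202 by the negative binomial test. With fragment length in the expectation instead, its ratio was 4.36 and its adjusted p 0.394. The window 16.6 kb upstream went from 2.78 to 1.57 with banded expectation. No other viewpoint lay within 100 kb of Btg2, and 8 lay within 500 kb.

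Set side by side, the 6 tested promoters had 18.4% to 31.8% of their events between 10 and 100 kb, with a median of 21.4% against 16.1% over all 6718 viewpoints. The order was Ccnd3, E2f2, Rb1, E2f4, Btg2 and Cdk4, with Cdkn1b between Ccnd3 and E2f2. Ccnd3 stood apart from each of the tested promoters in each library. E2f2, Rb1 and E2f4, at 22.1%, 22.1% and 20.7%, differed by less than the spread of E2f2 (SD 2.26), and Btg2 at 19.4% and Cdk4 at 18.4% by less than that of Cdk4 (SD 1.61). From 100 kb to 1 Mb the order was another one, with E2f4 at 22.7% ± 1.27 (SD, n = 3) the highest, and Rb1 at 11.1% and Cdkn1b at 10.6% the lowest.

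**Figure D4:**
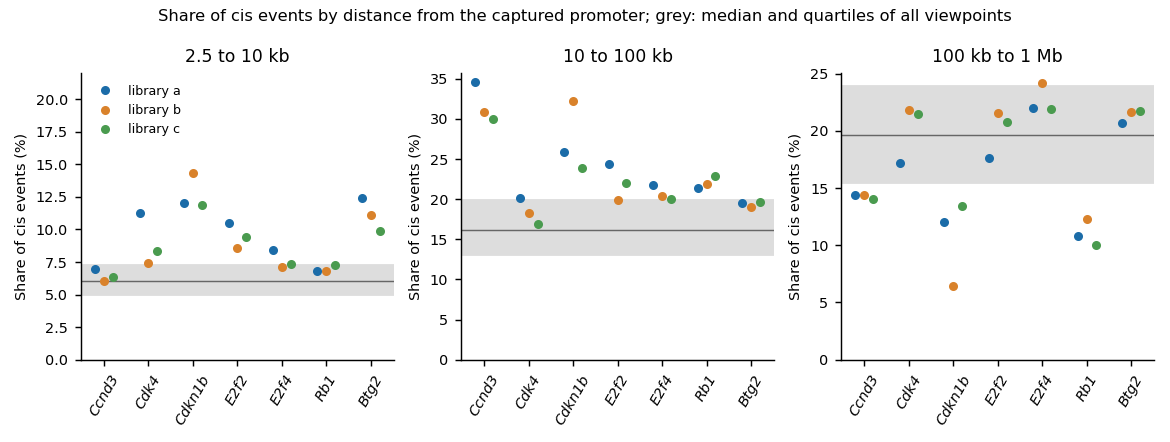
Share of cis events, in percent, by distance from each captured promoter, with points for libraries a, b and c and a grey line and band for the median and quartiles of all viewpoints. Between 10 and 100 kb Ccnd3 has the highest mean, with libraries at 30.0% to 34.6% against a median of 16.1%, and library b of Cdkn1b, which has few events, lies among them at 32.2%.

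The split of events between the sides from 10 kb to 1 Mb also differed among the promoters. Ccnd3 had 37.4%, 43.7% and 41.8% downstream in libraries a, b and c, with a mean of 41.0% ± 3.22 (SD, n = 3) where distance and the listed fragments gave 49.3%. Rb1 had 42.0%, 42.5% and 48.5%, mean 44.3% ± 3.64 (SD, n = 3), against 49.3% expected. Both were below expectation in each library, which means more contacts upstream. Cdk4, with 64.3%, 58.1% and 62.5%, and E2f4, with 58.7%, 56.0% and 59.4%, were above it in each library. Their means were 61.6% ± 3.19 and 58.1% ± 1.80 (SD, n = 3), against 50.6% and 49.4% expected. E2f2, Btg2 and Cdkn1b were within 1 percentage point of expectation in the mean. Such splits are common, since the median distance from expectation over 5455 viewpoints was 7.18 points. The split also changed with distance. The mean downstream shares nearer than 100 kb (from 2.5 kb) and farther than that (up to 1 Mb) were 65.8% and 28.8% for E2f2, 42.9% and 57.7% for Btg2, and 39.6% and 50.5% for Rb1, so the lower share of Rb1 was in the nearer range.

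**Figure D5:**
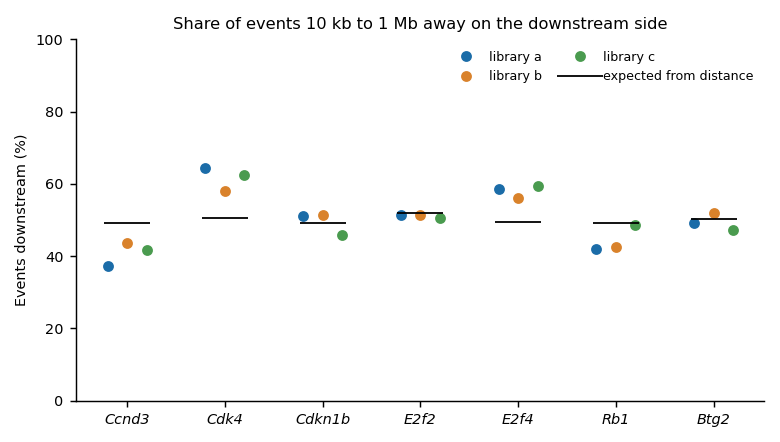
Share of events from 10 kb to 1 Mb that lie downstream of each captured promoter, in percent, with points for libraries a, b and c and black dashes for the share expected from distance. All 3 libraries of Cdk4 and E2f4 are above their dash, and all 3 of Ccnd3 and Rb1 below.

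Contact along the own gene was set against a stretch of the same length on the other side. For E2f2, the 24.1 kb of gene past the viewpoint had 2.18, 1.83 and 1.75 times the expected events, with a mean of 1.92 ± 0.229 (SD, n = 3), and the mirrored stretch 1.40 ± 0.232 (SD, n = 3). The gene was higher in each library. With the expectation set within distance bands the E2f2 values were 1.15 and 0.839. For Rb1 the order was turned, with 1.33 ± 0.146 in the gene and 1.69 ± 0.0798 in the mirrored stretch (SD, n = 3), and the gene was lower in each library. With the banded expectation its values were 0.888 and 1.14. For Cdk4 the values were 2.56 ± 1.10 and 1.12 ± 0.971 (SD, n = 3) on 25 and 6 events, and the gene was lower in library c. Leaving out a library moved the mirrored value of Cdk4 from 0.811, without library c, to 1.68, without library a. Ccnd3 (1.06 ± 0.104 and 1.36 ± 0.293), Cdkn1b (2.56 ± 1.01 and 2.29 ± 0.786), E2f4 (0.996 ± 0.150 and 1.06 ± 0.0936) and Btg2 (1.73 ± 0.599 and 1.75 ± 0.213; SD, n = 3) had no order of gene and mirrored stretch that held in each library. For Ccnd3 this counts only the 6.26 kb downstream of the captured start, while the larger part of its gene lies upstream.

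Captured fragments were themselves not listed as contacts, so contacts with other captured promoters were measured at the fragments next to their viewpoints. Over all viewpoints 0.0428% of 91211 such flanks were called, and of the 94 seen from the 6 promoters 0 were. At an unadjusted p under 0.05 there were 5, against 6.07% of all, with 3 seen from Btg2 and 1 each from Rb1 and Cdk4. Only 13 of the 94 flanks had at least 5 expected events, and none of those was seen from E2f2, Rb1 or Btg2. For Ccnd3 the highest ratios, among flanks with at least 5 expected events, were at Tfeb, a transcription factor of lysosomal genes, with 3, 5 and 3 events and a ratio of 1.95 ± 0.474 (SD, n = 3), at Taf8, a subunit of the general factor TFIID, with 2, 6 and 6 events and 1.61 ± 0.512, and at Med20_Bysl with 1.23 ± 0.258. For E2f4 they were Fbxl8_Tradd at 1.41 ± 0.0204, B3gnt9 at 1.36 ± 0.164 and D230025D16Rik at 1.21 ± 0.292, and for Cdk4 LOC100504703_Tspan31 at 1.62 ± 0.341 (SD, n = 3 for each). Their adjusted p-values by the negative binomial test were 0.586 to 0.605. Seen from the other viewpoint, the summed ratio at the flanks of Ccnd3 was 0.599 from Tfeb (2 events), 0.478 from Taf8 (3 events) and 0.901 from Med20_Bysl (20 events). At the flanks of E2f4 it was 0.939 from Fbxl8_Tradd (5 events), 0.935 from B3gnt9 (30 events) and 0.719 from D230025D16Rik (5 events). From LOC100504703_Tspan31 to Cdk4 it was 1.60 (14 events). For Ccnd3 and E2f4 the reverse ratios were thus below 1, most of them on few events, and a difference between the directions was not tested. Single fragments gave the same count, since 0.00189% of 28839845 were called over all viewpoints and 0 of the 26542 of the 6 promoters. Of these, 622 had an unadjusted p under 0.05, against 2.91% of all fragments.

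Each promoter was also compared with other viewpoints within 500 kb, by the correlation of their ratios over shared windows. The most alike were Usp49 for Ccnd3 (Pearson r 0.638 over 384 windows), Pard6a_Acd for E2f4 (0.634, 312), Itm2b for Rb1 (0.529, 376), Klhl12 for Btg2 (0.521, 317), Rpl11 for E2f2 (0.502, 369) and Os9 for Cdk4 (0.269, 382). Windows of these pairs share libraries and the fragments counted, so the values are descriptions. Cdk4 had the lowest value and also the fewest events of the 6.

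The other genes of the pathway gave the scale for these counts. Lists of 67 further cell cycle genes held 57 that were in the viewpoint list, with 60 viewpoints, of which 56 were deep enough to test. The viewpoint named Cdkn2d lay at chr9:123836437-123836997, over Gm4694, while the annotated Cdkn2d gene lies at chr9:21092907-21095653. It had 0% of its 2798 events between 10 and 100 kb, and it is left out of the counts that follow unless named. The other 55 were within 10 kb of their gene. Of their 21857 windows 22 were called, 0.101% against 0.0677% over all viewpoints, in 14 viewpoints. Ccnb2, Tfdp2_b and Lin54 had 3 called windows each, on 42610, 97662 and 17148 cis events against a median of 6481.5 over all viewpoints. The part of depth in the share called was not tested. The 14 viewpoints included Ccne1 and Ccne2, cyclins of the step after the D-type cyclins, Ccna2 and Ccnb2 of later phases, and Tfdp2_b, a partner of E2f factors. Also called were windows of the viewpoints Cks2, Ccnh, Aurka, Lin54, Rhno1_Foxm1, Mxd1, Mxi1, Cul1 and Cul4a. By list, called windows belonged to 4 of 9 tested viewpoints of other G1 cyclins and kinases, 3 of 8 of S and M phase genes and 3 of 16 of pocket proteins, E2f and Dp factors. They belonged to 2 of 8 of Myc, Max and Myb genes, 2 of 6 of ubiquitin ligase parts and 0 of 3 of other Btg and Tob genes, and among 6 viewpoints of other inhibitors only to the one named Cdkn2d. The 7 promoters described above had none, over 6 tested, and the share of viewpoints with a call was 14.8% over the whole series. The strongest called window of each of the 14 had 4.75 to 15.3 times the expected events. The median share of events between 10 and 100 kb in these lists was 14.5% to 19.8%.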

How the data were processed

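The authors trimmed the reads with Trim Galore, aligned them with Bowtie to mm9 and counted unique ligation events with their Capture-C programs. The deposited signal values are events per 100000 cis events of the same viewpoint and library. Dividing them by the smallest value above 0, which is 1 event, gave counts, and 100% of values were whole within 0.01. Reads of the hybrid mice were aligned to the reference strain, and the part of this in the counts was not tested. Viewpoints needed 1000 cis events to be tested, and fragments from 2.5 kb to 1 Mb were used.

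The expectation for a fragment came from 50 distance bins over all viewpoints, scaled to the total of its viewpoint. The median ratio over viewpoints was not 1 in each stretch. It ran from 1.19 at 2.5 to 10 kb downstream to 0.864 at 500 kb to 1 Mb upstream. A negative binomial test (upper tail) was run over windows, fragments and flanks, the fragments 1 to 2 places from another viewpoint. Dispersion was estimated by moments in 20 distance bins for windows and flanks and in 50 for single fragments. The 1% of counts farthest above expectation, relative to its square root, were left out of this estimate of dispersion. A test on simulated data showed that this made the dispersion too low, so it was corrected for the counts left out. This correction, and the uncorrected alternative, were chosen after seeing the data. Shares have exact binomial (Clopper-Pearson) 95% intervals, which cover counting error only, as do limits from a count of 0, set at 3 counts. The depth of each library, given above, sets this precision. Percentiles compare a viewpoint with all others and are no test.

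For each tested promoter the 3 windows of lowest p and the most similar viewpoint within 500 kb were named. Up to 3 flanks of highest ratio were named where at least 5 events were expected, which left none for E2f2, Rb1 and Btg2. The genes and lists were chosen with earlier results of these data known. Alternatives concerned windows, dispersion, expectation, depth and libraries. The authors' interaction caller was not run. Positions came from NCBIM37 and GENCODE M1, and tools were Python with numpy 2.4.6, scipy 1.17.1 and pandas 2.3.3.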

Additional observations from a re-analysis of the deposited data

How the results depend on the processing

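No paired analysis was possible because the libraries formed 1 group. The count of called windows of the promoters stayed at 0 except with the expectation set within distance bands (1, of Btg2, 273 kb downstream), without fragments sharing a 30-base word with their viewpoint (2, of Ccnd3) and with the dispersion uncorrected for the counts left out, an alternative added after seeing the data (7). That last setting also gave 1 called fragment, of Btg2, against 0. The cause was not tested. Over all viewpoints the 1800 called windows became 301 with no count left out of the dispersion, 1962 with the highest 0.1% and 2173 with the highest 5% left out, 1050 with banded expectation, 1213 without chromosome X and the deep stretch of chromosome 9, 1340 in 10 kb windows, 1055 to 1384 leaving out a library, 2598 without fragments sharing a word, and 9265 uncorrected. The 546 called fragments became 248 with none left out, 1359 with fragment length in the expectation and 3751 uncorrected, and the 39 flanks became 194 uncorrected. Banded expectation moved summed ratios of named windows by over 1.5 times, down for Ccnd3, E2f2, Rb1 and Btg2 near the promoter and up for E2f2 and Btg2 farther out, as given above.

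The downstream share depended on distance. From 2.5 to 100 kb it was 50.7% for Cdk4, 65.8% for E2f2, 52.3% for E2f4, 39.6% for Rb1 and 42.9% for Btg2. From 100 kb to 1 Mb it was 46.3% for Ccnd3, 73.2% for Cdk4, 53.8% for Cdkn1b (47.2% nearer in), 28.8% for E2f2, 63.5% for E2f4, 50.5% for Rb1 and 57.7% for Btg2, so that E2f2, Rb1, Btg2 and Cdkn1b crossed 50% between the ranges. The share of Cdkn1b between 10 and 100 kb ranged from 24.9% to 29.1% leaving out a library, and that of Btg2 was 19.95% of events beyond 2.5 kb. With banded expectation the ratio in the own gene was 0.887 for Ccnd3, 1.49 for Cdkn1b, 1.15 for E2f2, 0.888 for Rb1 and 1.06 for Btg2. In the mirrored stretch it was 1.33 for Cdkn1b, 0.839 for E2f2, 1.14 for Rb1 and 1.07 for Btg2, and for E2f2 it was 1.09 beyond 10 kb. Genes shorter than that limit (Ccnd3 past its captured start, Cdk4, Cdkn1b, E2f4 and Btg2) gave no value there. Depth was lowest for Cdk4 and Cdkn1b, where 277 and 351 of 401 windows had under 1 expected event.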
